A study of Homo sapiens with 12 samples.

Results

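The comparison described here set SK-mel147 melanoma cells carrying hairpins against H2AZ2 directly against the same cells carrying sh_83, a hairpin against H2AZ1. SK-mel147 is an established human melanoma line, and each group expressed a lentiviral short hairpin RNA. The members were the 4 arrays titled H2AZ2 RNAi (2 with sh_37 and 2 with sh_38) and the 2 arrays titled H2AZ1 RNAi with sh_83, together 6 of the 12 arrays of the series. The 4 control arrays, 2 with a scrambled hairpin and 2 with a hairpin against luciferase, served as the level from which each side was measured and added to the estimate of the spread. The 2 arrays titled sh_84, another H2AZ1 hairpin, were left out. The titles speak of siRNA where the treatment protocol gives lentiviral hairpins, and the labels used here give neither the time after infection nor any word that replicates were separate cultures. The p-values therefore rest on differences between arrays that may have no biological source.

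H2AZ1 and H2AZ2 encode the H2A.Z.1 and H2A.Z.2 proteins, near-identical forms of the histone variant H2A.Z, which takes the place of H2A in nucleosomes beside transcription start sites and at enhancers. Remodelling complexes built on SRCAP or EP400 deposit the variant, and ANP32E takes it out. The series title gives the growth and drug response of melanoma cells as its interest. A direct comparison of the hairpin groups asks which transcripts depend on the form that is lost, rather than on either loss against control.

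The model has limits that hold for every value below. H2AZ1 loss is represented by sh_83 alone, so loss of H2AZ1 and the effects of that hairpin's own sequence cannot be told apart. The knockdowns also differed in depth: H2AZ1 stood at 19.3% of its control level with sh_83, whereas H2AZ2 stood at 46.1% with sh_37 and at 65.4% with sh_38. In these bulk RNA samples fewer cells of a kind and less RNA per cell cannot be told apart.

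A gene is called here when its adjusted p from limma, over all 18417 genes, was under 0.05. The average contrast compares the H2AZ2 hairpins as a group with sh_83, counting the hairpin as a random block. A gene is said to differ with both hairpins when the average contrast and the contrasts of sh_37 and of sh_38 with sh_83 were all called with the same sign. Both single-hairpin contrasts use the same sh_83 arrays, so they are not independent of each other. Values are log2 expression after RMA, and differences are log2 differences, H2AZ2 hairpins minus sh_83 unless another pair is named.

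Promoter windows of 6 genes are shown first. They are the targeted genes, 3 genes of cell division or DNA repair lower with both H2AZ2 hairpins, and TFDP1, lower with sh_83. All 6 windows hold a CHR or an E2F-type element, described below, and so are not typical. Of 25 matched windows of lower genes, 5 held CHR and 1 the E2F-type element. Each window runs from 250 bases before to 50 bases after the RefSeq start in GRCh38.p14 and is written 5′ to 3′ on the gene's own strand. They lie at chr4:99950226-99950525 (H2AZ1, minus strand), chr7:44848038-44848337 (H2AZ2, minus), chr7:36389612-36389911 (ANLN, plus), chr4:17810729-17811028 (NCAPG, plus), chr1:241847954-241848253 (EXO1, plus) and chr13:113584503-113584802 (TFDP1, plus). Capitals mark CCAAT and the cell-cycle element CHR (TTTGAA or TTCGAA) in H2AZ1 and H2AZ2, CHR in ANLN and NCAPG, an E2F-type element (TTTCGCGC or TTTGGCGC) in EXO1 and TFDP1, and a CRE (TGACGTCA) in EXO1, each on either strand.
H2AZ1: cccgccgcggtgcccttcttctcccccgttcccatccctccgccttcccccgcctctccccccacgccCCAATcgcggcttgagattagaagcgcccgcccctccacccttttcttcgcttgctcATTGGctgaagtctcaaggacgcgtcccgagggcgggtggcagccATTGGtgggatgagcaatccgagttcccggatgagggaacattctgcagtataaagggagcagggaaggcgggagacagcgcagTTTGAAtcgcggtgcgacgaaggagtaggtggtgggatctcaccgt
H2AZ2: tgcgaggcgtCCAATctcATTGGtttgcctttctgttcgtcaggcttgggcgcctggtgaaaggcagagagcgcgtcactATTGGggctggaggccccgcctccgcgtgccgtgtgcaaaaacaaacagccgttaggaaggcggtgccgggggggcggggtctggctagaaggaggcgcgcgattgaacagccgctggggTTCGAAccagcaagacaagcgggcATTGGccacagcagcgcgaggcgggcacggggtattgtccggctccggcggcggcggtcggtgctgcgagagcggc
ANLN: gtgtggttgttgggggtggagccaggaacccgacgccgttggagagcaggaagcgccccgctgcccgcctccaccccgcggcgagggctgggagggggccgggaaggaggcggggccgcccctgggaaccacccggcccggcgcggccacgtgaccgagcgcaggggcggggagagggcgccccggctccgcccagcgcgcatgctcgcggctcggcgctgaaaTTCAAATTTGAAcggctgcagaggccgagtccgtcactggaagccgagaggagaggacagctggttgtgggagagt
NCAPG: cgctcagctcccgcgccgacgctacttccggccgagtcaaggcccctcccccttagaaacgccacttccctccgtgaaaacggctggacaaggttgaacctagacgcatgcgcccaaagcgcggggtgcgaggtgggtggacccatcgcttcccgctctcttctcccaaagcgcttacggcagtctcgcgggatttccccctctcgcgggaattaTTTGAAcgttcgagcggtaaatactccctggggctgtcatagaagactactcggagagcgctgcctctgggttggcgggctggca
EXO1: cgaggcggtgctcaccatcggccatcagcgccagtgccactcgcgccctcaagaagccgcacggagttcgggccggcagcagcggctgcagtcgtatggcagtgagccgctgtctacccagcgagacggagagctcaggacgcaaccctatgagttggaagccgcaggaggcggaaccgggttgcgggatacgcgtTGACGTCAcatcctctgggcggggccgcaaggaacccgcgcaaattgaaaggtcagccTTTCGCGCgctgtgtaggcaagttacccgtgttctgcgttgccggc
TFDP1: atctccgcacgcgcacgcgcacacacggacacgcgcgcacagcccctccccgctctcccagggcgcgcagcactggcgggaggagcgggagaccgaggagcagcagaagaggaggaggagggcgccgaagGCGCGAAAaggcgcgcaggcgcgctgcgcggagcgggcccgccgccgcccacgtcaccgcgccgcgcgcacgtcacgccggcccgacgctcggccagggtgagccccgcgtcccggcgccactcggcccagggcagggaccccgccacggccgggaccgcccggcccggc

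The targeted transcripts separated the groups in opposite directions. H2AZ1 read 11.965 and 12.09 with sh_37, 12.11 and 12.09 with sh_38, and 9.79 and 9.94 with sh_83, against 12.30 and 12.18 with the scrambled hairpin and 12.12 and 12.38 with luciferase. The sh_83 arrays stood far below all others, and the H2AZ2 arrays lay just under the lowest control. The difference for H2AZ1 was 2.20 (SE 0.11, limma adjusted p = 2.42e-06). H2AZ2 read 9.94 and 9.83 with sh_37, 10.43 and 10.35 with sh_38, 10.98 and 10.89 with sh_83, 10.94 and 10.99 with scrambled and 11.03 and 11.05 with luciferase. Here the sh_37 arrays were lowest, the sh_38 arrays intermediate, and the sh_83 arrays overlapped the controls. The difference for H2AZ2 was -0.80 (SE 0.15), and its limma adjusted p of 0.05 lay just inside the threshold. Against control, H2AZ1 stood at 86.2% with sh_37 and 90.5% with sh_38, and H2AZ2 at 95.3% with sh_83; neither cross-effect was called (limma adjusted p = 0.326 and 0.972).

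**Figure D1:**
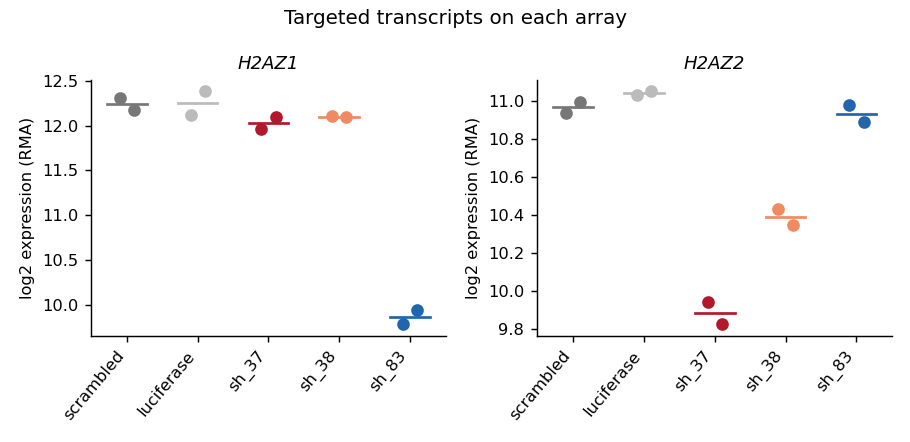
Expression of H2AZ1 (left) and H2AZ2 (right) on each of the 10 arrays, in log2 units after RMA, by hairpin; points are arrays and bars are the means of 2 arrays. H2AZ1 is low with sh_83 alone (9.79 and 9.94), and H2AZ2 is low with sh_37 (9.94 and 9.83) and less so with sh_38 (10.43 and 10.35). The vertical axes do not start at 0.

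Across the transcriptome few genes were called between the groups, a number that moved with the fit, as given below. In the average contrast 62 genes were higher with the H2AZ2 hairpins (0.337% of those tested) and 31 were lower (0.168%), and 1904 genes had an unadjusted p under 0.05. Of the 93, 89 differed with both hairpins: 60 were higher (0.326%) and 29 lower (0.157%), with the targets H2AZ1 and H2AZ2 among them. The other 4, BUB1B, CNPY4, GADD45A and GPR137C, missed the threshold with sh_37 or sh_38 alone. The genes that were higher had a median difference of 0.76 and those that were lower one of -0.70, against 0.01 over all genes, and 14 of the former and 1 of the latter passed a 2-fold difference. All 89 had their 4 H2AZ2 arrays wholly above or wholly below both sh_83 arrays, which choosing them by both hairpin contrasts makes nearly certain. Over all genes 11.8% lay above and 11.1% below, without regard to any test.

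By hairpin, sh_37 minus sh_83 called 702 genes higher (3.81%) and 473 lower (2.57%), and sh_38 minus sh_83 called 165 higher (0.896%) and 194 lower (1.05%). The difference was larger with sh_37 for 55 of the 89 genes and with sh_38 for 34, and 9 of the 89 were also called in the contrast of sh_37 with sh_38, in which 3.42% of all genes were higher and 1.79% lower. No gene was called between the scrambled and luciferase hairpins in the same limma fit, where 1294 had an unadjusted p under 0.05.

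The number of calls rested on single arrays. Without sh_83 replicate 1 only H2AZ1 was called in the average contrast, and without sh_83 replicate 2, 5 genes were, among them H2AZ1, FZD6, DCAKD and RILPL2. Without scrambled replicate 1 the count was 6, without luciferase replicate 1 it was 19, without sh_38 replicate 1 it was 21 and without sh_37 replicate 2 it was 43, whereas without scrambled replicate 2 it rose to 170. For the genes that differed with both hairpins the totals without sh_37 replicate 1 and sh_38 replicate 2 were 36 and 43. The direction of all 89 genes was kept in each of these fits, though the choice of genes by their difference favours that.

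The control arrays were then used to describe on which side each of the 89 differences lay. The contrasts with control share arrays with the difference itself, and sh_83 against control has 2 arrays against 4, which gives it a larger SE (for H2AZ2, 0.15 against 0.13). H2AZ2 hairpins minus control called 163 genes higher (0.885%) and 475 lower (2.58%), and sh_83 minus control called 3 higher (0.0163%) and 14 lower (0.076%). Among the 89 genes, 47 passed only in the H2AZ2 contrast (25 higher, 22 lower with H2AZ2 hairpins), 12 passed only in the sh_83 contrast, 30 passed in neither, and no gene passed in both. The 89 were chosen for a difference between the groups, and sh_83 against control called very few genes. The absence of a gene that passed in both therefore says little. The sh_83 contrast is passed less readily, through its larger SE and through the adjustment, which is stricter where few genes are called. DCAKD with sh_83 (-0.79 from control, SE 0.13) was not called (limma adjusted p = 0.0556). PCDHB16 with H2AZ2 hairpins (0.58 from control, SE 0.14) was called (limma adjusted p = 0.0433). These counts therefore do not divide the genes by knockdown.

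**Figure D2:**
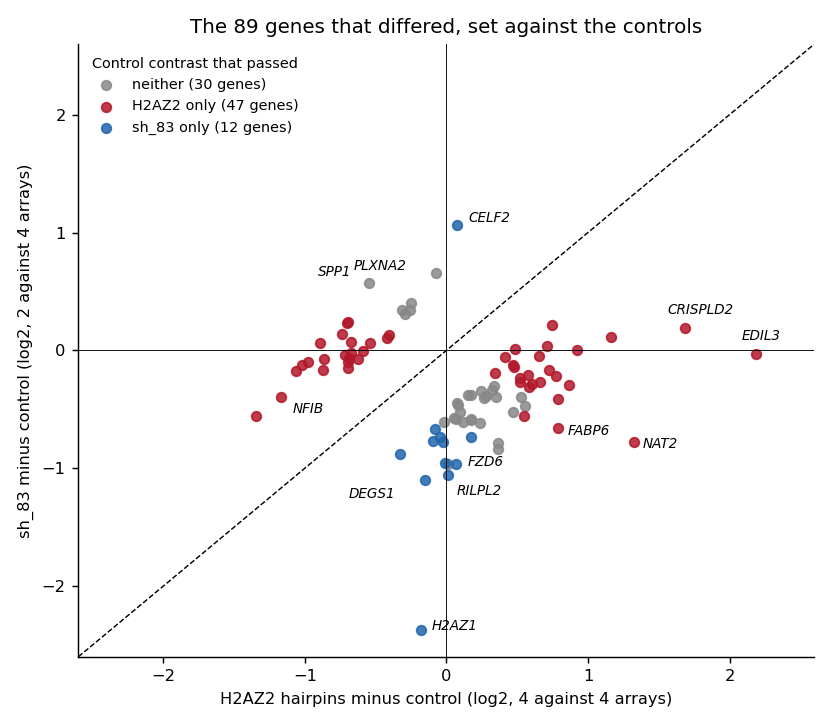
The 89 genes that differed with both H2AZ2 hairpins, each placed by its log2 difference from control with the H2AZ2 hairpins (horizontal) and with sh_83 (vertical); colour gives the control contrast that was called, and the dashed line marks equal differences. The red genes that are higher and lower with H2AZ2 hairpins have medians of -0.19 and -0.05 on the vertical axis, and H2AZ1, in blue, lies at the bottom (-2.38 with sh_83).

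The largest gains with H2AZ2 hairpins included EDIL3, CRISPLD2 and FGF1, whose products act outside the cell. EDIL3, a secreted glycoprotein that binds integrins, read 11.35 and 11.32 with sh_37, 10.92 and 10.87 with sh_38, 9.22 and 8.57 with sh_83, 8.55 and 8.41 with scrambled and 9.53 and 9.22 with luciferase. Every H2AZ2 array exceeded every other array, and the sh_83 arrays fell within the controls. The difference was 2.22 (SE 0.30, limma adjusted p = 0.0109), a 4.66-fold higher level. CRISPLD2, a secreted cysteine-rich protein, read 9.003, 8.61, 8.20 and 8.25 with sh_37 and sh_38 and 7.15 and 6.88 with sh_83, while the controls ran from 6.48 to 7.17. Its difference was 1.498 (SE 0.24, limma adjusted p = 0.0271), with no overlap between the H2AZ2 arrays and the rest. FGF1, a fibroblast growth factor without a signal peptide, read 8.98 and 9.08 with sh_37, 9.58 and 9.58 with sh_38, 7.92 and 8.30 with sh_83 and 8.23 to 8.77 in the controls. The sh_38 arrays were the highest, and the difference was 1.20 (SE 0.21, limma adjusted p = 0.0373).

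The same side of the comparison held metabolic and regulatory genes. NAT2, an arylamine N-acetyltransferase, read 7.61 and 7.94 with sh_37, 6.69 and 6.38 with sh_38, 5.003 and 5.11 with sh_83 and 5.57 to 6.10 in the controls. Both sh_83 arrays lay under the lowest control and all H2AZ2 arrays above the highest, and the difference was 2.10 (SE 0.36, limma adjusted p = 0.0359). FABP6, a bile acid binding protein of the ileum, read 9.66, 9.78, 9.16 and 9.22 with H2AZ2 hairpins, 7.97 and 8.04 with sh_83 and 8.53 to 8.83 in the controls, again on both sides of control. Its difference was 1.45 (SE 0.17, limma adjusted p = 0.00642). ZBTB20, a zinc-finger repressor, read 9.04, 8.72, 9.07 and 8.95 with H2AZ2 hairpins and 7.82 and 7.86 with sh_83, with controls from 8.10 to 8.57. Its difference was 1.11 (SE 0.15, limma adjusted p = 0.00918). From control it stood at 0.55 with H2AZ2 hairpins and at -0.56 with sh_83, and only the former was called. TRIM22, an interferon-inducible antiviral ubiquitin ligase, differed by 0.92 (SE 0.165, limma adjusted p = 0.0389) and stood at 0.005 from control with sh_83.

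The 25 genes higher against control with H2AZ2 hairpins had a median difference of 0.66 from control, and their median with sh_83 was -0.19. Further members, picked after their values were seen, were SERPINH1, the collagen chaperone of the endoplasmic reticulum (0.70 against sh_83), EFEMP2, an elastic fibre protein (0.76), LRRC17 (1.05), LRRC15 (0.79), MDK, the heparin-binding growth factor midkine (0.62), and HDAC9, a class IIa deacetylase (0.89). PCDHB9 (0.99) and PCDHB16 (0.89) belong to the protocadherin beta cluster, whose genes are so alike that probes may be shared between them. LINC00518 and PAX8-AS1 are non-coding RNAs (1.16 and 0.93).

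Since some of these genes are also active in fibroblasts, fibroblast markers are given beside them. All 7 measured markers (COL1A1, COL1A2, COL3A1, DCN, LUM, PDGFRA and PDGFRB) had positive differences, none was called, and the sum of their log2 values ran from 46.73 to 48.77 over the H2AZ2 arrays, 46.62 to 46.78 with sh_83 and 45.05 to 46.51 in the controls. LUM, the largest, read 10.19, 9.98, 9.22 and 9.17 with H2AZ2 hairpins, 9.06 and 9.02 with sh_83 and 8.41 to 9.25 in the controls. The contrast of sh_37 with sh_83 called LUM (1.043), and that of sh_38 did not (0.155). DCN was low throughout, with group means of 3.46 to 3.64, under the median level of all genes (7.69). With 0.337% of all genes called higher in the average contrast, the absence of a call among 7 markers says little. The part of these markers in the result was not tested.

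**Figure D3:**
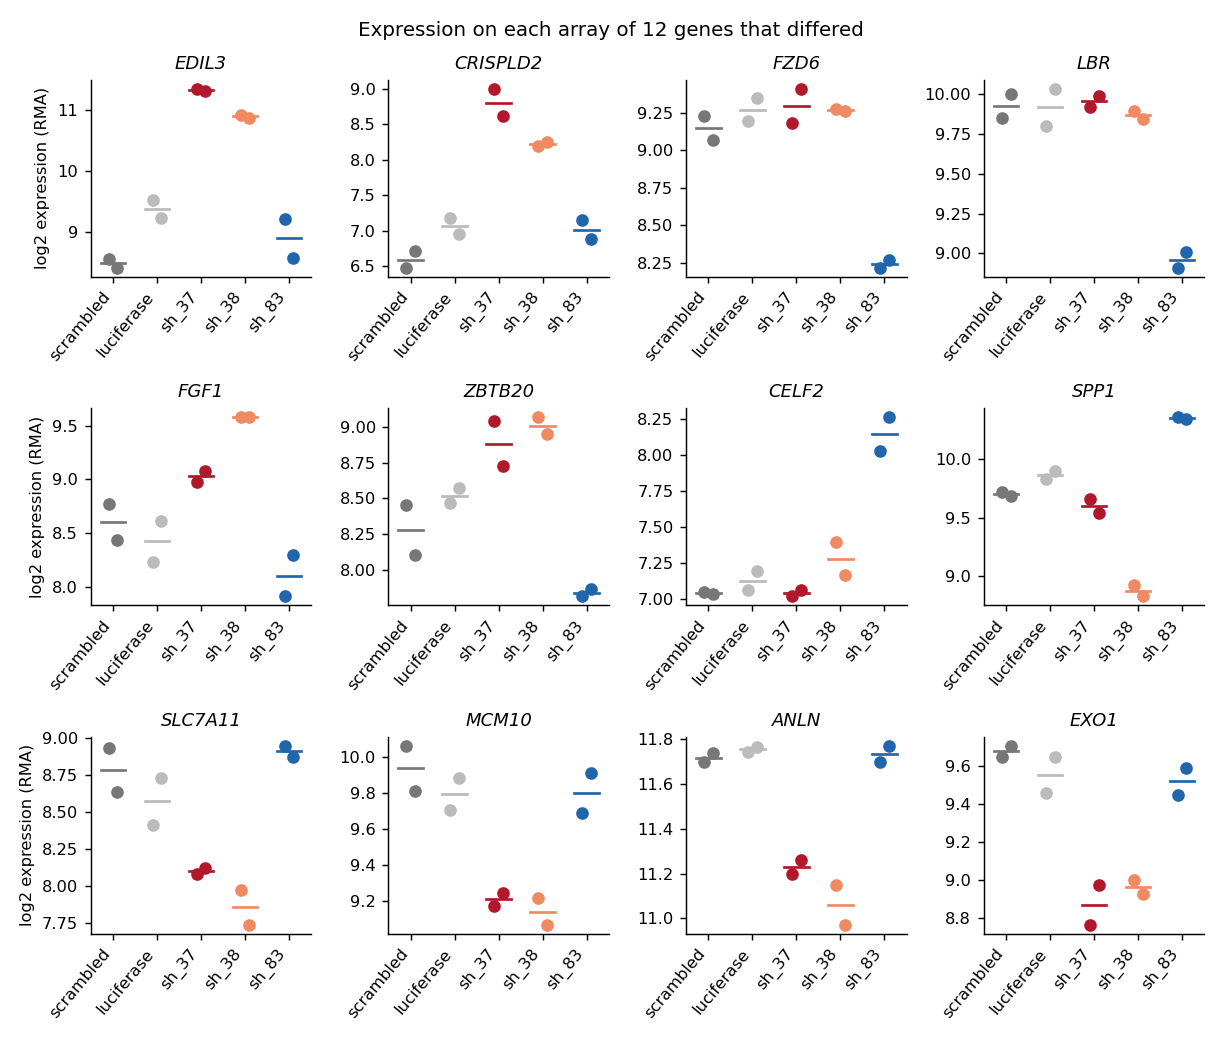
Expression of 12 genes that differed with both H2AZ2 hairpins, in log2 units after RMA on each of the 10 arrays; points are arrays, bars are hairpin means of 2 arrays, and each panel has its own axis, which does not start at 0. EDIL3 and CRISPLD2 are high with sh_37 and sh_38 and at control level with sh_83, FZD6 and LBR are low with sh_83 alone, and MCM10, ANLN and EXO1 are low with sh_37 and sh_38 alone.

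Among the 22 genes lower against control with H2AZ2 hairpins, whose median was -0.70 from control and -0.05 with sh_83, several act in chromosome replication, repair and division. MCM10, which helps to start DNA replication forks, read 9.17 and 9.24 with sh_37, 9.21 and 9.07 with sh_38, 9.69 and 9.91 with sh_83 and 9.70 to 10.06 in the controls. The H2AZ2 arrays did not overlap the rest, and the difference was -0.63 (SE 0.12, limma adjusted p = 0.05, just inside the threshold). ANLN, the actin-binding protein anillin of the cleavage furrow, read 11.20, 11.26, 11.15 and 10.97 with H2AZ2 hairpins, 11.70 and 11.77 with sh_83 and 11.70 to 11.77 in the controls. The sh_83 and control arrays coincided, and the difference was -0.59 (SE 0.10, limma adjusted p = 0.0359).

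NCAPG, a condensin subunit, read 9.72, 9.87, 9.94 and 9.87 with H2AZ2 hairpins, 10.32 and 10.48 with sh_83 and 10.35 to 10.55 in the controls. Its difference was -0.56 (SE 0.10, limma adjusted p = 0.0467). EXO1, an exonuclease of mismatch repair and of DNA end resection, read 8.77, 8.97, 8.999 and 8.93 against 9.45 and 9.59 with sh_83 and 9.46 to 9.71 in the controls. It differed by -0.60 (SE 0.11, limma adjusted p = 0.0406), and for both genes the sh_83 arrays reached into or just under the range of the controls. VRK1, a chromatin kinase of mitotic entry that was picked after its value was seen, differed by -0.75.

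Other genes of this group encode transcription factors and membrane proteins. NFIB, a nuclear factor I transcription factor, read 9.31, 8.94, 9.37 and 9.09 with H2AZ2 hairpins, 9.96 and 9.93 with sh_83 and 10.09 to 10.51 in the controls. The sh_83 arrays fell between the other groups, and the difference was -0.77 (SE 0.15, limma adjusted p = 0.05). PRDM1, the repressor Blimp-1, read 7.62 and 7.68 with sh_37, 8.02 and 8.03 with sh_38, 8.70 and 8.73 with sh_83 and 8.66 to 8.99 in the controls, a difference of -0.88 (SE 0.145, limma adjusted p = 0.0341). SLC7A11, the cystine importer, read 8.08, 8.12, 7.97 and 7.74 with H2AZ2 hairpins, 8.95 and 8.87 with sh_83 and 8.41 to 8.93 in the controls. It differed by -0.93 (SE 0.15, limma adjusted p = 0.032), with the sh_83 arrays at the top of the range.

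SLAIN1, a microtubule plus-end protein, was the lowest by the ranking used (7.31, 7.07, 7.35 and 6.92 with H2AZ2 hairpins against 8.12 and 8.11 with sh_83), with a difference of -0.95 (SE 0.17, limma adjusted p = 0.0384). GRAMD1C, a sterol transfer protein, differed by -0.94, TMX4, a thioredoxin-related membrane protein of the endoplasmic reticulum, by -0.89, and SLC44A1, a choline transporter, by -0.70. TIMP3, an inhibitor of metalloproteinases, differed by -0.65, and both of its probe sets pointed the same way (-0.65 and -0.81). SPRED1, an inhibitor of the RAS to ERK pathway, differed by -0.52 (SE 0.095, limma adjusted p = 0.0406) and was the smallest difference among the 29 lower genes. PSAT1, an enzyme of serine synthesis, and PNP, an enzyme of purine salvage, both picked after their values were seen, differed by -0.60 and -0.88.

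The 12 genes for which only the sh_83 contrast with control passed are named the sh_83 side here. The name follows the calls and not the sizes of the differences from control. Besides H2AZ1 they were RILPL2, FZD6, DEGS1, LBR, GRPR, SLC71A2 (HIATL1 in older annotation), KCNG1, TFDP1, BANF1, RNF182 and CELF2. None of these was called with H2AZ2 hairpins against control, though for RNF182 all 4 H2AZ2 arrays (9 to 9.31) lay below the controls (9.39 to 9.56), a difference of -0.33 (limma adjusted p = 0.0637). FZD6, a Frizzled receptor for Wnt ligands, read 9.18 and 9.41 with sh_37, 9.27 and 9.26 with sh_38, 8.22 and 8.27 with sh_83 and 9.07 to 9.35 in the controls. The sh_83 arrays lay below all others, and the difference was 1.03 (SE 0.11, limma adjusted p = 0.0035). RILPL2, which binds Rab proteins and acts at the primary cilium, read 8.93, 8.98, 9.26 and 9.17 with H2AZ2 hairpins, 7.995 and 8.03 with sh_83 and 9.04 to 9.12 in the controls, a difference of 1.07 (SE 0.11, limma adjusted p = 0.0035). DEGS1, the desaturase that makes ceramide, read 10.34, 10.38, 10.40 and 10.16 against 9.44 and 9.30 with sh_83 and 10.31 to 10.63 in the controls, a difference of 0.95 (SE 0.12, limma adjusted p = 0.00721).

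Members of this group with roles at the nuclear envelope or in the cell cycle were also measured. LBR, the lamin B receptor of the inner nuclear membrane, read 8.91 and 9.01 with sh_83 and 9.80 to 10.03 in the controls, and its difference was 0.95 (SE 0.10, limma adjusted p = 0.00398). BANF1, a small protein that ties DNA to the nuclear lamina, read 11.30 and 11.58 with sh_83 and 12.03 to 12.17 in the controls and differed by 0.59, with its 2 probe sets at 0.59 and 0.33. TFDP1, the partner with which E2F factors bind DNA, read 11.77, 11.71, 11.94 and 11.79 with H2AZ2 hairpins, 11.09 and 11.18 with sh_83 and 11.81 to 12.02 in the controls. It differed by 0.67 (SE 0.11, limma adjusted p = 0.0282), and the H2AZ2 arrays reached into the range of the controls. CELF2, an RNA-binding regulator of splicing, was the only gene of the 12 that was higher with sh_83: it read 8.03 and 8.26 there, 7.02 to 7.39 with H2AZ2 hairpins and 7.03 to 7.19 in the controls, a difference of -0.99 (SE 0.12, limma adjusted p = 0.00721).

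For the remaining 30 genes neither contrast with control passed. The 24 higher ones had medians of 0.21 from control with H2AZ2 hairpins and -0.50 with sh_83. For the 6 lower ones the medians were -0.27 and 0.37. A gene not called here can still lie far from control: CLGN, picked after its values were seen, stood at 0.008 with H2AZ2 hairpins. With sh_83 it stood at -0.96 (limma adjusted p = 0.112). DCAKD, a protein with a dephospho-CoA kinase domain, read 10.15, 10.00, 10.38 and 10.40 with H2AZ2 hairpins, 8.99 and 9.16 with sh_83 and 9.79 to 10.00 in the controls. Its difference of 1.16 (SE 0.13, limma adjusted p = 0.00464) was made up of 0.37 from control with H2AZ2 hairpins and -0.79 with sh_83. SPP1, the secreted phosphoprotein osteopontin, read 9.66 and 9.54 with sh_37, 8.93 and 8.83 with sh_38, 10.36 and 10.35 with sh_83 and 9.69 to 9.90 in the controls. The sh_83 arrays lay above the controls and the H2AZ2 arrays below them, and the difference was -1.12 (SE 0.21, limma adjusted p = 0.0407), the only one among the lower genes past 2-fold. PLXNA2, a plexin receptor for semaphorins, read 6.97, 6.83, 7.002 and 6.88 with H2AZ2 hairpins, 7.61 and 7.68 with sh_83 and 6.89 to 7.19 in the controls, a difference of -0.72 (SE 0.11, limma adjusted p = 0.0237).

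Other genes of these 30, picked after their values were seen, include PAPPA and PAPPA2, proteases that cleave IGF-binding proteins (1.03 and 0.67), PLTP, a phospholipid transfer protein (0.92), ADGRL3, an adhesion receptor of the latrophilin family (1.20), and TCTN1, BBS1 and INTU, which build or serve the primary cilium (0.85, 0.76 and 0.55). BCAT1, the cytosolic branched-chain aminotransferase, was among the lower ones (-0.65). PINK1-AS lies antisense to PINK1; the array's probe sets are assigned by the platform annotation, and whether signal of the sense gene enters was not tested.

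Gene lists gave an account of the smaller differences. The lists were chosen with earlier results of these data known and were not tested as sets, so their counts and medians are descriptions, to be read against a median of 0.01 and 52.4% of genes above 0 over all genes. Of 41 genes of the DNA replication machinery, 1 was called lower (MCM10), and the median difference was -0.31 (-0.35 with sh_37 and -0.28 with sh_38), with 40 of 41 below 0. ORC1 and POLE2, an origin recognition subunit and a polymerase epsilon subunit, stood at -0.68 and -0.70 and just missed the threshold (limma adjusted p = 0.056 each). Of 41 G2 and mitosis genes, 3 were called lower in the average contrast (ANLN, NCAPG and BUB1B; over all genes 0.168% were), 39 lay below 0 and the median was -0.34 (-0.46 with sh_37 and -0.22 with sh_38).

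Against control the same lists stood at different distances with the hairpins, given side by side since both contrasts use the same control arrays. For the replication list the median was -0.46 with H2AZ2 hairpins, where 30 of 41 genes were called lower against 2.58% of all genes, and -0.10 with sh_83, where none was called lower against 0.076% of all genes, so that a count of 0 says little there. On single arrays its median relative to the control mean was -0.53 and -0.47 with sh_37, -0.36 and -0.45 with sh_38 and -0.15 and -0.09 with sh_83, and the control arrays ran from -0.08 to 0.06. The H2AZ2 arrays did not overlap the sh_83 arrays. The G2 and mitosis list read -0.54 and -0.53 with sh_37, -0.19 and -0.36 with sh_38 and -0.12 and -0.02 with sh_83. Here sh_38 replicate 1 came close to sh_83 replicate 1.

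Related lists had at most 1 call each in the average contrast, which called 0.337% of all genes higher and 0.168% lower. A count of 0 in such lists says little. Of 23 genes of homologous recombination and the Fanconi pathway 1 was called lower (EXO1), with a median of -0.29. None was called among 28 replication-dependent histone genes (median -0.28), whose near-identical copies can share probes, among 9 genes of nucleotide supply (-0.30) or among 21 of chromatin assembly and silencing (-0.26). In the last, CHAF1A, the large subunit of the replication-coupled histone chaperone CAF-1, stood at -0.50 (limma adjusted p = 0.056). Of 24 p53 target genes 1 was called higher, GADD45A, a growth arrest gene (0.68, limma adjusted p = 0.0429), though not with both hairpins, and 23 lay above 0 with a median of 0.24. SESN1, a sestrin, stood at 1.10 (limma adjusted p = 0.056) in the average contrast. Both single-hairpin contrasts called SESN1 (0.875 with sh_37 and 1.328 with sh_38). CDKN1A, the p21 inhibitor of cyclin-dependent kinases, stood at 0.53 (limma adjusted p = 0.0761).

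Some lists were split by hairpin. The MAPK output list of 21 genes, the targets and feedback inhibitors of ERK signalling, had a median of -0.36 with sh_37 and 0.01 with sh_38. Its large differences, such as ETV1 (-1.99 with sh_37, -0.83 with sh_38) and SPRY4 (-1.59 and -0.55), were not called in the average contrast, and SPRED1 alone was. The cholesterol and fatty acid synthesis list of 20 genes had a median of 0.37 with sh_37 and -0.01 with sh_38, and DEGS1 was its called member. Among contractile genes, TAGLN, an actin-binding protein of smooth muscle, read 9.88 and 9.95 with sh_37 and 8.33 and 8.27 with sh_38 against 7.38 and 7.72 with sh_83. Its mean difference of 1.56 was not called in the average contrast (SE 0.42, limma adjusted p = 0.151), and the hairpins stood far apart. Both single-hairpin contrasts called TAGLN (2.365 with sh_37 and 0.751 with sh_38).

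**Figure D4:**
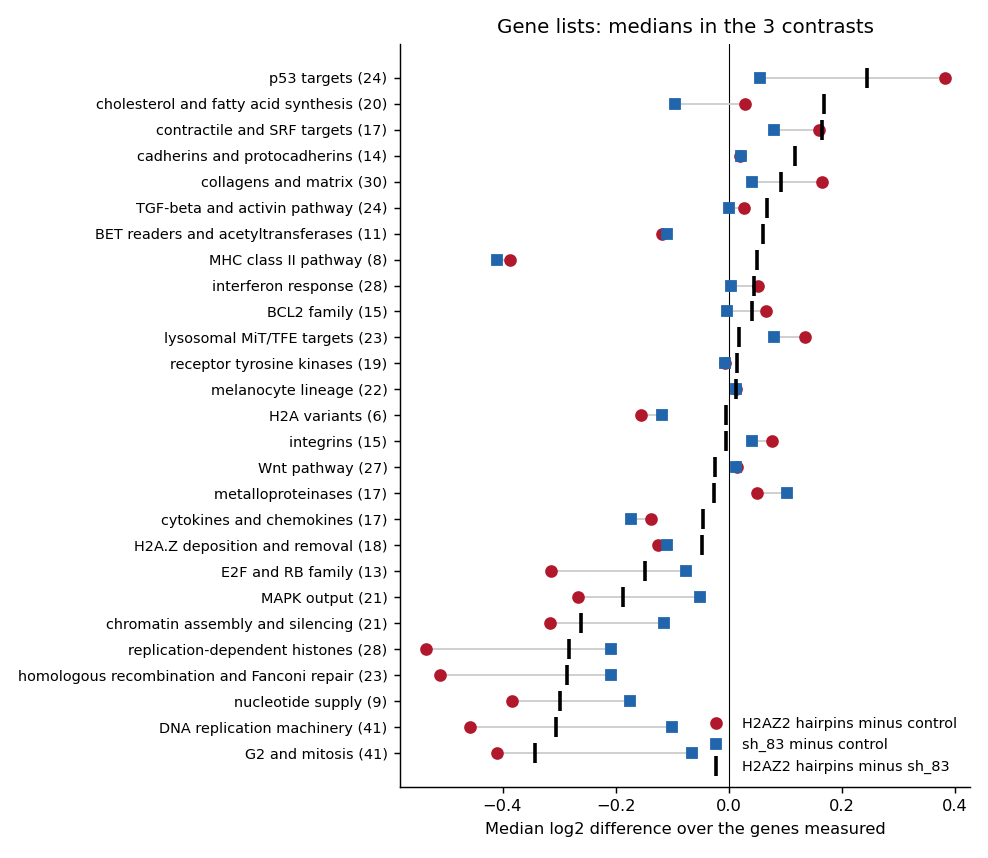
Median log2 difference of each gene list (number of genes measured in brackets) with the H2AZ2 hairpins against control (red circles), sh_83 against control (blue squares) and the H2AZ2 hairpins against sh_83 (black bars). The replication (-0.46 and -0.10) and G2 and mitosis (-0.41 and -0.07) lists lie farther below 0 with the H2AZ2 hairpins than with sh_83, and the p53 list farther above 0 (0.38 and 0.06).

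In the other lists 0 or 1 gene differed with both hairpins, beside the targets among the H2A variants. The called members were EDIL3 of 30 collagen and matrix genes (list median 0.09), FZD6 of 27 Wnt pathway genes (-0.03), TRIM22 of 28 interferon response genes (0.05), TIMP3 of 17 metalloproteinase genes (-0.03) and TFDP1 of 13 E2F and RB family genes (-0.15). The average contrast called none among 18 genes that deposit or remove H2A.Z (median -0.05), where ANP32E stood at -0.43 (limma adjusted p = 0.314). It called none either in the TGF-beta, integrin, cadherin, cytokine, MHC class II or lysosomal lists. The same held for the melanocyte lineage, receptor tyrosine kinase, BCL2 family and BET reader lists. Over all genes that contrast called 0.337% higher and 0.168% lower, so counts of 0 in lists of this size say little. Members of these lists that both single-hairpin contrasts called include CDH6 (1.02 with sh_37 and 0.65 with sh_38), IL24 (-1.51 and -0.54) and SOX5 (1.04 and 0.54).

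No marker of melanocyte identity was called in the average contrast. That contrast called 0.337% of all genes higher and 0.168% lower, so a count of 0 in a short list says little. Of the 6 melanocyte markers measured, SOX10 averaged 10.41 with H2AZ2 hairpins, 10.29 with sh_83 and 10.62 in the controls, and MITF 8.22, 8.34 and 8.29, whereas the pigment genes PMEL, MLANA, TYR and TYRP1 averaged 4.76 to 5.84 in these groups, under the median level of all genes (7.69). None was called in the keratinocyte, endothelial or leukocyte lists either.

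The promoter windows were compared by composition. A RefSeq window was matched for 74 of the 89 genes and for 14237 of all 18417. Over all genes the median window held 23 CpG dinucleotides in 300 bases, with quartiles of 9 and 32. The 19 matched genes higher against control with H2AZ2 hairpins had a median of 12, with EDIL3 at 16 and FABP6 at 3, and the 19 lower ones had a median of 31, with NFIB and PSAT1 at 37 each. The 10 matched genes of the sh_83 side had a median of 23. These counts are descriptions of windows taken from an annotation, and no test was made on them.

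**Figure D5:**
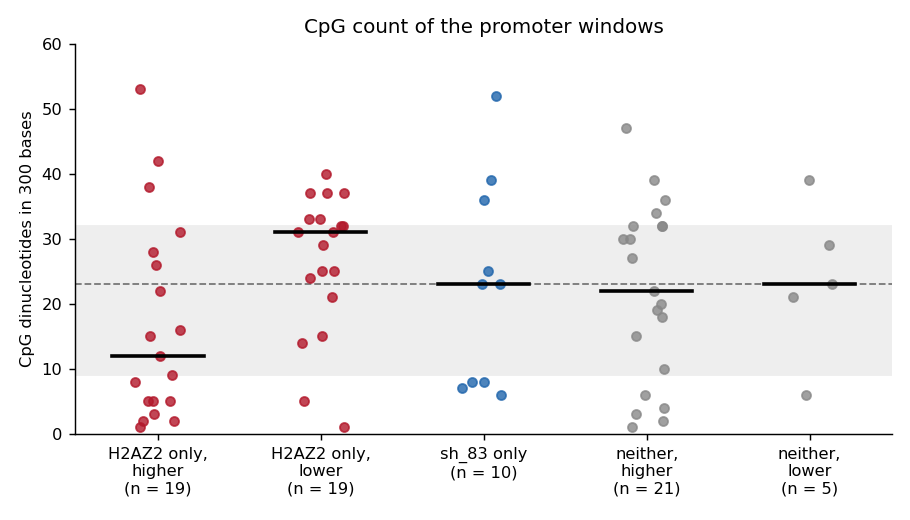
CpG dinucleotides in the 300-base promoter window of each matched gene (points), grouped by the control contrast called and the direction of the difference; thick bars are medians, the dashed line is the median of all genes (23) and the shaded band its quartiles (9 to 32). The genes lower with H2AZ2 hairpins sit mostly in the upper part (median 31) and the genes higher with them mostly in the lower part (median 12).

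Motifs were searched on both strands, and a match is only a description of the letters. CHR was found in 13.3% of all windows, in 5 of 25 windows of lower genes (20.0%: ANLN, H2AZ2, HSPA4L, NCAPG and PRDM1) and in 4 of 49 windows of higher genes (8.16%: H2AZ1, INTU, PARP3 and ZBTB20). The targets H2AZ2 and H2AZ1 are counted in these sets, where the knockdowns themselves place them. In the ANLN window printed above the element occurs in tandem on opposite strands. The E2F-type element was found in 1.66% of all windows, in EXO1 alone among the lower genes and in TFDP1 and MBTPS1 among the higher ones. CRE was found in 2.65% of all windows and in EXO1 and MCM10 among the lower genes, and CCAAT in 36.3% of all windows, 36.0% of those of lower and 34.7% of those of higher genes. The other motifs searched were TATAAA (9.0% of all windows, 3 of 25 of lower and 5 of 49 of higher genes), the AP-1 site TGAGTCA (3.55% of all windows, none of the lower and 4 of 49 of the higher genes) and the E-box CACGTG (8.88%, 4 of 25 and 1 of 49).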

How the data were processed

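RNA of 12 samples was measured on Affymetrix Human Gene 1.0 ST arrays. The authors deposited 1 log2 expression value per probe set and array, which the submitters' processing notes attribute to RMA. Version, software, filters and annotation build were not given in the sources used here. Array medians ran from 6.9997 to 7.0968, and nothing was renormalized in the main setting. No background values or scan dates were used here, so signal over background is unknown and no scan batch was tested; the number of arrays limits the precision. Of 33297 probe sets, 19460 had 1 gene symbol, 1754 had several and 12083 were not listed in the platform annotation; 19429 matched the RefSeq gene table (GRCh38.p14), which supplied current symbols. The brightest probe set was kept for each of 769 genes with several, which left 18417 genes.

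Tests used limma 3.58.1 in R 4.3.3 on 10 arrays, without sh_84, on which the label of replicate 2 disagrees between title and characteristic. The average contrast came from a fit of 3 targets with the hairpin as random block (consensus correlation 0.117, 7 residual degrees of freedom), single hairpins from a fit of 5 hairpins as groups (5 residual degrees of freedom); both used eBayes, two-sided tests and Benjamini-Hochberg adjustment over all genes. The fits were tested on simulated data.

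Named genes are the targets, the 10 highest and 10 lowest of the genes that differed with both hairpins, ranked by the smaller single-hairpin difference, up to 5 of the sh_83 side, and up to 4 called members (otherwise the largest) of each of 32 gene lists, of whose 618 entries 580 were measured. The comparison, lists and naming rule were chosen with earlier results of these data known. Promoter windows came from RefSeq tables of GRCh38.p14 and were matched by Entrez gene identifier, with a single window kept per gene. Figures were drawn with matplotlib 3.10.9. Alternatives covered the block, the arrays and hairpins included, probe set averaging, dim genes, centring, renormalization and the variance model.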

Additional observations from a re-analysis of the deposited data

Results flagged for a closer look

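Among the 4 H2AZ2 arrays, sh_37 replicate 1 stood apart for H2AZ1: it read 11.965, the nearest of the others 12.09 and the highest 12.11. It was the only such case among 60 groups of 4 arrays examined, where chance gives about 1 in 20.

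The H2AZ2 hairpins differed from each other, in the limma fit by hairpin, for 9 of the 89 genes. With sh_37 minus sh_38 the log2 differences were 1.24 for NAT2, 0.53 for FABP6, 0.75 for ADGRL3, 0.51 for PCDHB9 and 0.45 for PLTP, genes that were higher than with sh_83, so that the gain was larger with sh_37. LINC00518 stood at -0.64, with the larger gain under sh_38. Of the lower genes, H2AZ2 itself stood at -0.50, with the larger loss under sh_37, while PNP (0.505) and SPP1 (0.72) were lower with sh_38. The knockdown of H2AZ2 was deeper with sh_37; its part in these differences was not tested.

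Outside the genes named in the report, 13 of 13837 probe sets without exactly 1 gene symbol were called in the same contrast (0.094%), 12 higher and 1 lower, and 6 of the higher ones differed with both hairpins. They are not named.

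The arrays labelled sh_84 entered only alternative fits of the gene counts. For the 12 genes of the sh_83 side, both arrays lay beyond all 4 controls in the direction of sh_83 for 2: RILPL2 (-0.34 from control, against -1.06 with sh_83) and RNF182 (-0.54 against -0.88). Over the 12 genes the sh_84 values ran from -0.54 to 0.23, and H2AZ1 itself stood at -0.12.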

How the results depend on the processing

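All 89 genes kept their direction in every setting run (of 85 measured when the dimmest 25% of genes were left out), but the number called moved with the setting, and the cause was not tested unless the setting's construction shows it. Counts are given as higher and lower. In the average contrast (62 and 31) the count was 99 and 72 with no hairpin block, 412 and 330 with hairpins as groups, 509 and 405 with only the 6 arrays of the comparison, 89 and 61 with all 12 arrays, 240 and 308 without hairpin sh_37, 859 and 696 without hairpin sh_38, 49 and 14 without hairpin luciferase, and 99 and 80 with a trended, robust variance. With sh_83 and sh_84 as 1 H2AZ1 group, chosen after seeing the data, it was 383 and 419. For genes that differed with both hairpins (60 and 29) the count was 96 and 48 with hairpins as groups, 109 and 60 with 6 arrays, 87 and 55 with 12, 46 and 12 without luciferase, 66 and 45 after quantile normalization and 98 and 79 with the trended variance. The share called higher was 66.7% in the main setting, 59.5% after quantile normalization and 64.2% after centring. Leaving out 1 array at a time gave 1 to 103 higher and 0 to 67 lower genes in the average contrast, and 1 to 93 and 0 to 50 with both hairpins. Of the 89 genes, 1 remained called with both hairpins without sh_83 replicate 1, 3 without sh_83 replicate 2 and 89 without scrambled replicate 2; the lone sh_83 array was then assumed to vary like the other groups. The labels used here do not say what a replicate number stands for. Deviations of same-numbered arrays from their hairpin means correlated from -0.47 to 0.68 over 10 pairs, with a median of 0.08 and 5 over 0.1. Whether same-numbered arrays share a batch was not tested. A replicate block gave 23 higher and 5 lower genes in either count. For the 30 named genes that differed with both hairpins, 564 of the alternative values kept their call and 185 lost it, with no reversal.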

Other observations

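Genes of antigen presentation by MHC class II stood at similar median distances from control with both hairpin groups. Of 8 measured genes none was called in the average contrast between the H2AZ2 hairpins and sh_83, and the list's median difference was 0.05. That contrast called 0.337% of all genes higher and 0.168% lower, so a count of 0 says little. CTSS, a member of the list, was called with sh_37 against sh_83 (0.85) but not with sh_38 (0.06). Against control, whose arrays both contrasts share, the median was -0.39 with the H2AZ2 hairpins and -0.41 with sh_83. Of the 8 genes, 3 were called lower with the H2AZ2 hairpins (2.58% of all genes were) and 1 with sh_83 (0.076% of all genes were). The control hairpins stood apart: relative to the control mean, the list's median was -0.08 and -0.17 with scrambled and 0.14 and 0.11 with luciferase. HLA-DPB1, a class II beta chain, stood at -0.52 and -0.55, HLA-DPA1 at -0.30 and -0.42, and HLA-DQA1, an alpha chain, at -0.68 and -0.97.

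In the cell-cycle lists some genes also stood at similar distances from control on both sides, unlike the lists' medians. The genes of this paragraph were picked after their values were seen, and other members like them were not counted. TPX2, a spindle assembly factor, stood at -0.41 with H2AZ2 hairpins and -0.44 with sh_83, KIF14, a kinesin of cytokinesis, at -0.33 and -0.36, and E2F8, an atypical E2F repressor, at -0.78 and -0.64. CDC6, which loads the replicative helicase, stood at -0.78 and -0.56. None of these 4 genes was called between the H2AZ2 hairpins and sh_83, a contrast that called 0.337% of all genes higher and 0.168% lower. In the chromatin list, CBX5, which encodes the heterochromatin protein HP1 alpha, stood at -0.05 and -0.49, and ASF1A, a histone chaperone, at -0.07 and -0.51, with differences of 0.44 and 0.45 between the hairpin groups that were not called (limma adjusted p = 0.144 and 0.33).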
